A study of Rattus norvegicus with 22 samples.

Results

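Fabp4, Ucp1, Adipoq and Cd36 are genes of fat cells and of fatty acid handling, and every probe set annotated with 1 of these symbols was taken over all 22 arrays of a rat toxicology study. A probe set is a group of short array probes that together report 1 transcript. The rule found 3 of the 4 genes, of 10411 genes in all, with 4 probe sets of 15866: 1 each for Fabp4 and Ucp1, 1 for Cd36 alone, and 1 annotated to both Cd36 and Cd36l1, here called the shared Cd36 probe set. Adipoq, the gene of the fat cell hormone adiponectin, was not analysed here, because the annotation used pairs no probe set with it.

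The study dosed pregnant Wistar rats with vehicle, with EMD 82571, a calcium sensitizer named MSC1096199 in the series text, or with retinoic acid, the vitamin A derivative that acts on gene expression through nuclear receptors. EMD 82571 was given at 50 or 150 mg/kg/day (EMD50 and EMD150) and retinoic acid at 12 mg/kg/day. Dosing ran on gestational days 6 to 11 and 6 to 17, per the protocols, which do not tie a schedule to a group. Comparisons of treatment between day 12 and day 20 may therefore also differ in the length of dosing and the time since the last dose. Maternal liver was taken on both day 12 and day 20, the whole embryo only on day 12, and bone and liver of the embryo only on day 20, which makes 5 combinations of tissue and day. The 5 combinations hold 20 groups, of which 18 have 1 array and 2 have 2 arrays, namely retinoic acid in whole embryo and in maternal liver at day 12. In each of these pairs 1 title carries the code RA5 and the other RA56, which the labels do not explain, and all day 20 arrays of retinoic acid carry RA56. The pairs were taken as 1 group because the protocols give 1 dose of retinoic acid. The labels do not say whether arrays of a tissue come from separate dams or litters, or whether tissue was pooled. The p-values therefore measure only the spread that each model leaves between these samples, which may be technical. As 18 of the 20 groups hold 1 array, that spread comes mostly from treatment differences that vary between tissues or days.

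Fat cells take fatty acids from the blood and store them. Cd36 is a membrane protein that binds long-chain fatty acids and helps them into fat, muscle and liver cells. Fabp4 is the carrier that binds fatty acids inside fat cells and is also made by endothelial cells of small vessels and by macrophages. Ucp1 lets protons leak across the inner mitochondrial membrane of brown fat cells, so that fat is burnt for heat, and it is the defining gene of brown fat. Cd36 and Fabp4 are textbook targets of the PPAR family of nuclear receptors, which act as partners of the retinoid X receptors. In rats, fat depots appear late in gestation, and liver normally makes little Fabp4 or Ucp1.

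The promoter windows of Ucp1 and Cd36 are shown because they carry the starts of the gene that defines brown fat and of the member that was called under retinoic acid. They span 250 bases before to 50 bases after the annotated start (RefSeq, assembly GRCr8), in the direction of the gene, 5′ to 3′. Capitals mark the letters TATAAA, read on either strand.
Ucp1, chr19:41721372-41721671, minus strand: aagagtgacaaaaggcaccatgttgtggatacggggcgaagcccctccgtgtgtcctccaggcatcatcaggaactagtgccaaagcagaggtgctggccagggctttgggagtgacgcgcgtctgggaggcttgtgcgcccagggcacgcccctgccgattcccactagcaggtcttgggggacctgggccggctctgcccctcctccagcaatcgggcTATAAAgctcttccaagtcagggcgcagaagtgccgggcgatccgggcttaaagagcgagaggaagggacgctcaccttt
Cd36, chr4:18246332-18246631, plus strand: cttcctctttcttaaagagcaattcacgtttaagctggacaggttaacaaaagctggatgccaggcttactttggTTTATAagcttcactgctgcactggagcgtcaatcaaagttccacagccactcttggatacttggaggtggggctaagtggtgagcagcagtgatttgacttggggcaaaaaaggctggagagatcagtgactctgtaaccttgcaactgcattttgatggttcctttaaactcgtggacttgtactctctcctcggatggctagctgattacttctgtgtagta

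Both windows hold TATAAA once. In Ucp1 it lies on the gene's own strand at positions −30 to −25 from the start, and in Cd36 on the opposite strand at −175 to −170. Of 33469 promoter windows of this length, 14.2% hold TATAAA on either strand. The nuclear receptor half-site AGGTCA, also read on either strand, is found in 16.2% of the windows, and neither the Ucp1 window nor the Cd36 window holds it. The matches describe the letters of these windows only. Fabp4 is named without a sequence.

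Values are log2 levels from RMA (robust multi-array averaging), so a difference of 1 is a doubling. The lowest value of the table is 4.86 and the highest 15.22. No detection calls are used here, so whether a low level lies above background is unknown, and the number of arrays limits the precision. Alb, which encodes serum albumin, lay at 15.13 or above in all maternal livers, and Col1a1, the main collagen of bone, at 14.55 or above in all bone arrays.

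In 3 arrays other measures departed from the rest. The maternal liver control of day 12 had a mean of 10.67 over 11 pancreatic acinar genes, and the maternal liver of day 20 under retinoic acid had a mean of 10.15 over 11 skeletal muscle genes. In the EMD50 bone the Gapdh probe sets of the 3′ and 5′ ends lay 2.72 apart, where all other arrays had 0.568 to 0.859. The control bone also differed from the 3 treated bones in Afp, a protein of fetal liver and yolk sac, which read 12.34 in it, against 7.82 under EMD50, 7.66 under EMD150 and 7.58 under retinoic acid. Results are given without the 3 arrays where that ends a call or turns a direction. Leaving these 3 out keeps the control bone and the EMD50 maternal liver of day 12, whose acinar genes, given below, were also high.

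Cd36 was highest in maternal liver, lower in embryo liver, lower again in embryo bone and lowest in the whole embryo. On the Cd36 probe set the 5 arrays of maternal liver at day 12 had a mean of 12.01 ± 0.22 (SD, n = 5) and the 4 of day 20 a mean of 11.82 ± 0.75 (SD, n = 4). Embryo liver averaged 10.03 ± 0.48 (SD, n = 4), embryo bone 8.37 ± 0.79 (SD, n = 4) and whole embryo 7.44 ± 0.12 (SD, n = 5). The shared probe set kept this order, with means of 12.74, 12.51, 10.88, 9.91 and 8.33. The ranges of neighbouring tissues did not overlap on either probe set, except those of the 2 days of maternal liver.

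These differences were tested with limma, a linear model fitted to all probe sets at once, with Benjamini-Hochberg adjustment over all of them; a difference is called at an adjusted p under 0.05. Embryo bone minus embryo liver was −1.66 ± 0.25 (SE; limma adjusted p 1.30e-05), and 55.2% of all probe sets were called in that comparison. Bone lay 1.03 ± 0.23 (SE) above whole embryo on the Cd36 probe set (limma adjusted p 0.00115) and 1.67 ± 0.16 (SE) above it on the shared one (limma adjusted p 5.80e-08), where 46.6% of probe sets were called. Against maternal liver of day 20, bone differed by −3.45 ± 0.25 (SE; limma adjusted p 2.91e-10, with 58.1% called) and embryo liver by −1.79 ± 0.25 (SE; limma adjusted p 7.94e-06, with 33% called). Maternal liver of day 12 exceeded whole embryo by 4.57 ± 0.22 (SE; limma adjusted p 3.75e-13, with 69.8% called). Such calls were common among all probe sets, so a call by itself sets Cd36 apart little. Bone and whole embryo differ in age as well as in tissue, and the effects of the 2 cannot be told apart. In samples of whole tissue, fewer cells of a type and less RNA per cell cannot be told apart either. Between the days, Cd36 in maternal liver changed by −0.09 ± 0.23 (SE) and the shared probe set by −0.18 ± 0.14 (SE), neither of which was called (limma adjusted p 0.848 and 0.502), while 6.08% of all probe sets were.

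**Figure D1:**
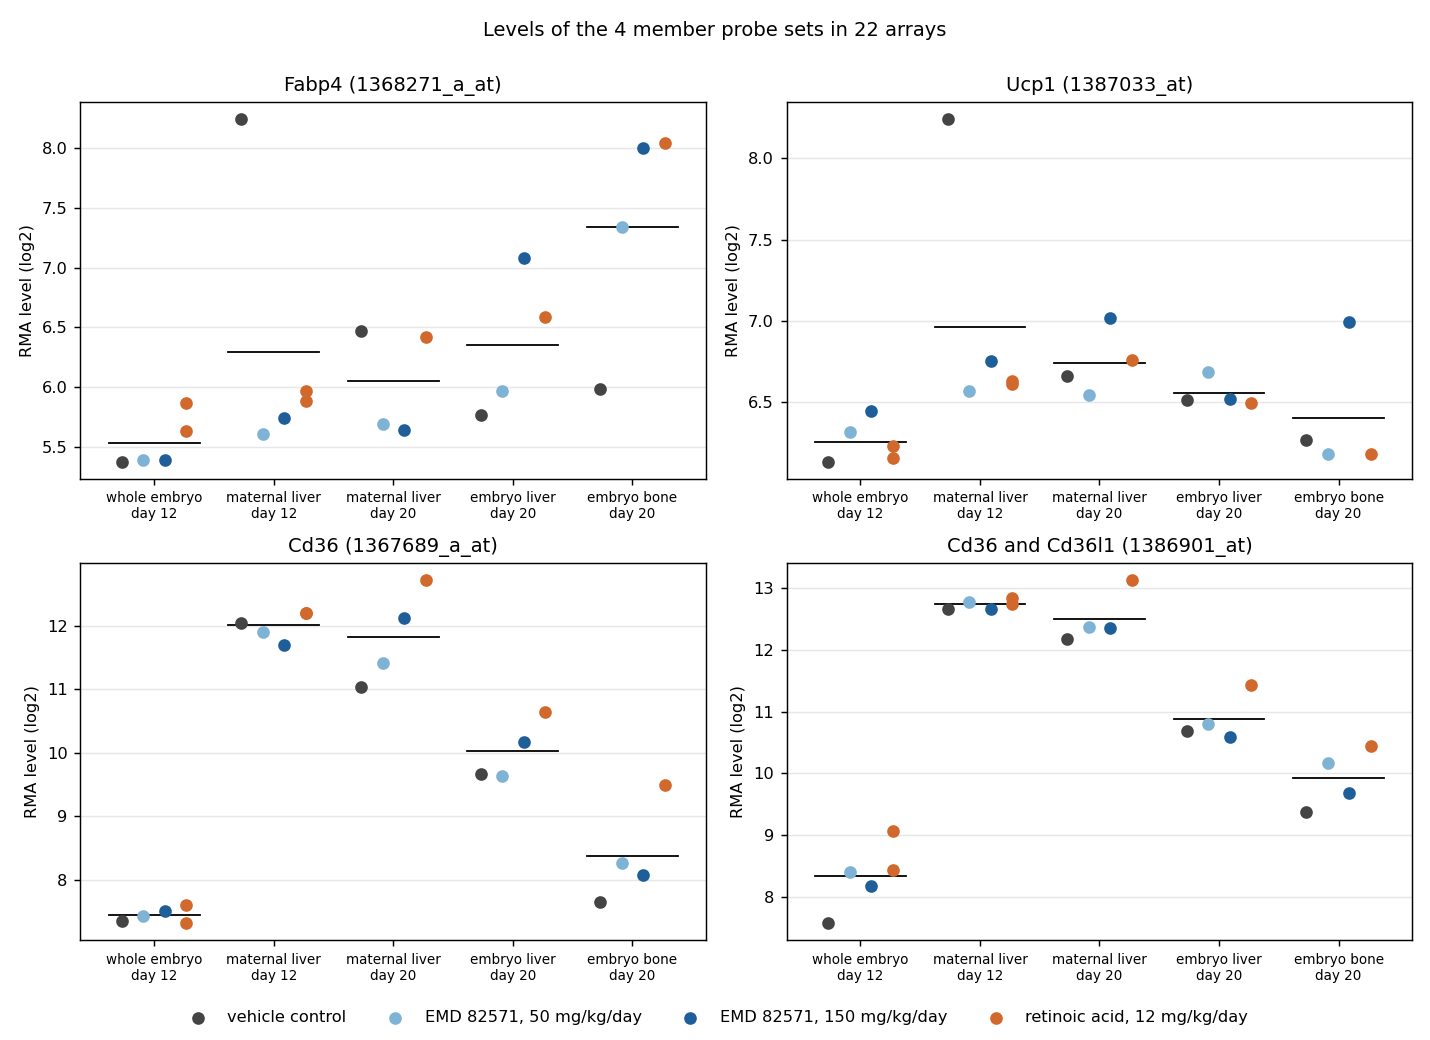
RMA level (log2, vertical axis) of the 4 probe sets in each array, by tissue and day (horizontal axis), with 1 point per array coloured by treatment and a line at the mean of each tissue and day. Both Cd36 probe sets separate the tissues, while Fabp4 and Ucp1 each have the maternal liver control of day 12 at 8.24, and Fabp4 lies between 7.34 and 8.05 in the 3 treated bone arrays.

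Cd36 was called higher under retinoic acid when the 5 combinations of tissue and day were fitted together, and, by day, at day 20 but not at day 12. On the Cd36 probe set, the controls read 7.35 in whole embryo, 12.04 and 11.03 in maternal liver at days 12 and 20, 9.66 in embryo liver and 7.65 in bone. The retinoic acid arrays read 7.6 and 7.32 in whole embryo, 12.20 and 12.21 in maternal liver at day 12, 12.71 at day 20, 10.64 in embryo liver and 9.49 in bone. At day 20 the retinoic acid array was the highest of its 4 in all 3 tissues. In whole embryo 1 of the pair lay below the control. On the shared probe set all 7 retinoic acid arrays lay above their control, by 0.08 to 1.49. Alb, a liver gene, read 13.6 in both the control and the retinoic acid bone, against 10.70 under EMD50 and 9.44 under EMD150. In whole embryo Alb read 8.585 in the control, 9.53 under EMD50, 9.90 under EMD150, and 10.19 and 12.0 under retinoic acid. The part of liver RNA in the Cd36 values was not tested.

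The limma model with tissue and day as a block put the retinoic acid difference at 0.84 ± 0.20 (SE) on the Cd36 probe set (limma adjusted p 0.0401) and at 0.77 ± 0.14 (SE) on the shared one (limma adjusted p 0.0253). In that comparison 291 probe sets were called, or 1.83% of all, 282 of them higher (1.78%). The call of Cd36 was lost with any 1 of 10 arrays left out, with values from 0.68 to 1.01, and that of the shared probe set with any 1 of 8. The controls of embryo bone, embryo liver, maternal liver of day 20 and whole embryo, and the retinoic acid arrays of day 20, were among both sets, and without several of them no probe set of the whole table was called. The call of Cd36 was also lost without the 3 arrays named above (0.90, limma adjusted p 0.0542), with arrays scaled to equal median and SD (0.77, limma adjusted p 0.0746) and after quantile normalization (0.76, limma adjusted p 0.0794), whereas that of the shared probe set was kept in all 3. Without the control bone, the array with high Afp, the Cd36 difference was 0.73 (limma adjusted p 0.171). Without both RA5 arrays both probe sets were still called, at 0.93 (limma adjusted p 0.0385) and 0.76 (limma adjusted p 0.0211).

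Retinoic acid was compared with control on each day as well. In a model with separate effects for the days, added after the values were seen, retinoic acid differed from control by 1.504 ± 0.181 (SE) at day 20 (limma adjusted p 0.00272), where 2.67% of probe sets were called, and by 0.14 ± 0.19 (SE) at day 12 (limma adjusted p 0.938). At day 12 limma called 0% of probe sets, where 705 had an unadjusted p under 0.05. The shared probe set differed by 0.92 ± 0.19 (SE) at day 20 (limma adjusted p 0.0231) and by 0.65 ± 0.21 (SE) at day 12 (limma adjusted p 0.923). The difference between the days was 1.37 ± 0.26 (SE) for Cd36 (limma p 9.19e-05, adjusted p 0.634) and 0.27 ± 0.28 (SE) for the shared probe set (limma adjusted p 0.761), and limma called no probe set, with 1183 at an unadjusted p under 0.05. So a change of the effect with day did not pass the threshold. Leaving out the maternal liver control of day 20 ended the call of Cd36 at day 20 (1.40, limma adjusted p 0.0593), as did any 1 of 5 arrays for the shared probe set, which also lost its call with arrays scaled to equal median and SD (0.80, limma adjusted p 0.0538). Without the 3 arrays named above its difference between the days turned to −0.17.

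**Figure D2:**
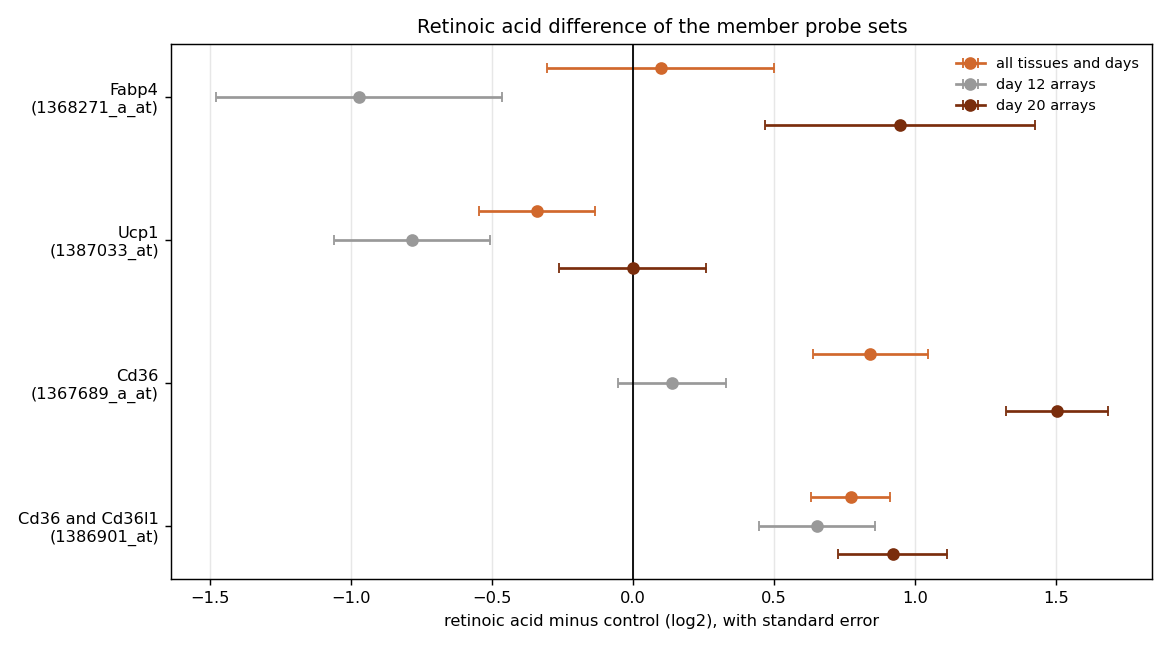
Difference between retinoic acid and control (log2, horizontal axis) with its standard error for each probe set (vertical axis), over all tissues and days, in the day 12 arrays and in the day 20 arrays. The Cd36 value of day 20, 1.504, lies to the right of that of day 12, 0.14, while the standard errors of the shared probe set overlap.

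Under EMD 82571 no difference of Cd36 was called, and single arrays lay on both sides of their controls. In maternal liver of day 12, Cd36 read 12.04 in the control, 11.91 under EMD50 and 11.69 under EMD150, both treated arrays lying below the control. In whole embryo the treated arrays were 0.07 and 0.15 above it. In maternal liver of day 20, Cd36 read 11.03 in the control, 11.41 under EMD50 and 12.11 under EMD150, and in embryo liver 9.66, 9.64 and 10.17. In bone it read 7.65, 8.26 and 8.08. Over all tissues and days, EMD50 differed from control by 0.18 ± 0.22 (SE) and EMD150 by 0.37 ± 0.22 (SE), neither called (limma adjusted p 1 and 0.360). In both comparisons limma called 0% of probe sets, with 253 and 2925 at an unadjusted p under 0.05. The shared probe set differed by 0.41 ± 0.15 (SE) and 0.20 ± 0.15 (SE), not called either (limma adjusted p 1 and 0.469).

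In the 9 maternal livers alone, the retinoic acid difference of Cd36 was 0.82 ± 0.31 (SE; limma adjusted p 0.665) and that of EMD 82571, as the mean of both doses, 0.25 ± 0.29 (SE; limma adjusted p 1). Retinoic acid exceeded EMD 82571 by 0.58 ± 0.26 (SE; limma adjusted p 0.505). EMD150 exceeded EMD50 by 0.24 ± 0.34 (SE; limma adjusted p 0.792). On the shared probe set the same 4 differences were 0.45 ± 0.19 (SE), 0.12 ± 0.18 (SE), 0.34 ± 0.16 (SE) and −0.08 ± 0.21 (SE), none called (limma adjusted p 0.512 to 1). In these 4 comparisons limma called 0% of probe sets, and 1136, 307, 1591 and 1406 had an unadjusted p under 0.05. In the maternal liver of day 20 under retinoic acid the mean level of the 11 skeletal muscle genes, 10.15, compares with 7.55 to 7.70 in the other livers of that day, and the part of muscle RNA in the Cd36 value was not tested. Without that array the retinoic acid difference over all tissues was 0.74 (limma adjusted p 0.119).

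Fabp4 had its highest mean in embryo bone. Its level was 5.98 in the control bone, 7.34 under EMD50, 8.0 under EMD150 and 8.05 under retinoic acid. The 3 treated bone arrays lay above every array of the other tissues apart from the maternal liver control of day 12. In the remaining tissues the means were 5.53 ± 0.22 (SD, n = 5) for whole embryo, 6.05 ± 0.45 (SD, n = 4) and 6.29 ± 1.10 (SD, n = 5) for maternal liver at days 20 and 12, 6.35 ± 0.60 (SD, n = 4) for embryo liver and 7.34 ± 0.96 (SD, n = 4) for bone.

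Bone exceeded whole embryo by 1.84 ± 0.46 (SE; limma adjusted p 0.0026) and maternal liver of day 20 by 1.29 ± 0.48 (SE; limma adjusted p 0.0285). These values average over the treatments. In the controls alone, bone, at 5.98, lay below maternal liver of day 20 (6.47) and day 12 (8.24). The control bone lay above the controls of embryo liver (5.76) and whole embryo (5.38). The fitted difference of bone from embryo liver, 0.99 ± 0.48 (SE), was not called (limma adjusted p 0.0885). Neighbours in the order of the means did not differ by limma. Leaving out any 1 of 5 arrays ended the call against maternal liver, with values from 1.04 to 1.26 (limma adjusted p 0.059 to 0.0994). Without the bone control the difference from embryo liver was 1.58 and was called (limma adjusted p 0.00524). It was also called without the maternal liver control of day 12 (0.99, limma adjusted p 0.00838), without the 3 arrays named above (0.92, limma adjusted p 0.0311) and from the bone and embryo liver arrays alone (0.99, limma adjusted p 0.00661).

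Endothelial cells and macrophages also make Fabp4, and their markers were higher in bone than in whole embryo as well. Of 9 macrophage genes all 9 were called higher, by 0.37 to 2.62, led by C1qc (2.62, limma adjusted p 4.97e-10), and of 10 endothelial genes 7, led by Eng (0.94, limma adjusted p 1.08e-05). Against maternal liver of day 20, 0 macrophage genes were called higher and 6 lower, and 3 endothelial genes each way. Against embryo liver, 1 macrophage gene was called higher and 5 lower, and 4 endothelial genes higher. The shares of all probe sets called higher and lower in that comparison were 25.6% and 29.6%. Against whole embryo they were 19.9% and 26.7%, and against maternal liver of day 20 they were 30.5% and 27.6%. The endothelial counts against maternal liver, 3 of 10 each way, lie near its shares. The part of these cells in the Fabp4 differences was not tested.

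Within bone the control was the low array. EMD150 lay 2.02 above it, the largest increase among all 15866 probe sets in that pair of arrays, retinoic acid 2.07 above it, with 17 probe sets higher, and EMD50 1.36 above it, with 32. In these pairs 0.164%, 2.4% and 1.64% of probe sets rose at least 2-fold, and with 1 array per group there is no replicate check. The EMD50 bone is the array with the deviating Gapdh difference. Liver RNA differed between the same bones: the mean level of 11 hepatocyte genes was 9.31 in the control, 7.73 under EMD50, 8.05 under EMD150 and 9.35 under retinoic acid, while Afp, as given above, was high in the control alone, and the part of liver RNA in the Fabp4 values was not tested. The mean of the 9 macrophage genes was 9.33 in the control bone, against 8.94 to 9.16 in the treated ones, and that of the 10 endothelial genes 8.94, against 8.70 to 9.23. The mean of 11 skeletal muscle genes ran from 11.09 to 11.96 in the 4 bones.

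In embryo liver, Fabp4 read 5.76 in the control, 5.97 under EMD50, 7.08 under EMD150 and 6.59 under retinoic acid. The EMD150 array lay 1.32 above the control, with 6 probe sets higher, where 0.214% of probe sets rose at least 2-fold. In whole embryo the control read 5.38, both EMD 82571 arrays 5.39, and the retinoic acid pair 5.86 and 5.64. Over embryo bone, embryo liver and whole embryo, together called the conceptus here, all 10 treated arrays therefore lay above their control for Fabp4, by 0.01 to 2.07.

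In maternal liver the order was the opposite. At day 12, Fabp4 read 8.24 in the control against 5.61 under EMD50, 5.74 under EMD150, and 5.89 and 5.97 under retinoic acid. The EMD50 liver minus the control was −2.64, the largest decrease among all 15866 probe sets of that pair, and the other arrays differed by −2.51, −2.36 and −2.27, with 11, 13 and 14 probe sets lower. In these 4 pairs 0.0945%, 0.24%, 0.233% and 0.202% of probe sets fell at least 2-fold. At day 20 the control read 6.47, EMD50 5.69, EMD150 5.64 and retinoic acid 6.42. All 7 treated livers lay below their control, and all 4 differences of 2-fold or more were at day 12, where the control is a single array.

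Over the 9 maternal livers, EMD 82571 differed from control by −1.69 ± 0.38 (SE; limma p 0.00165, adjusted p 1) and retinoic acid by −1.31 ± 0.40 (SE; limma p 0.01, adjusted p 0.601), so neither was called. Day 20 differed from day 12 by −0.26 ± 0.29 (SE; limma adjusted p 0.644), EMD150 from EMD50 by 0.04 ± 0.43 (SE; limma adjusted p 0.980) and retinoic acid from EMD 82571 by 0.38 ± 0.33 (SE; limma adjusted p 0.682). The treatment differences depended on which control was kept. With the day 12 control alone the differences were −2.67 (limma adjusted p 0.00332) and −2.22 (limma adjusted p 0.00681), both called. With the day 20 control alone they were −0.70 and −0.25, and neither was called.

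A model with separate effects for maternal liver and conceptus, added after the values were seen, gave a Fabp4 effect in the conceptus of 0.82 ± 0.31 (SE) for EMD 82571 and 1.06 ± 0.34 (SE) for retinoic acid (limma adjusted p 0.451, with 0% of probe sets called, and 0.150, with 1.9% called). For EMD 82571 the maternal minus conceptus difference was −2.51 ± 0.49 (SE; limma p 1.04e-04, adjusted p 0.713), and for retinoic acid −2.36 ± 0.53 (SE; limma p 3.69e-04, adjusted p 0.390). Limma called 0% of probe sets in either, with 340 and 465 at an unadjusted p under 0.05. Without the maternal liver control of day 20 both were called, at −3.49 and −3.27, and without that of day 12 they were −1.52 and −1.30, not called. Taken over all 5 combinations of tissue and day, Fabp4 differed from control by −0.37 ± 0.43 (SE) under EMD50, 0.00246 ± 0.43 (SE) under EMD150 and 0.10 ± 0.40 (SE) under retinoic acid, none called (limma adjusted p 1, 0.998 and 0.959).

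**Figure D3:**
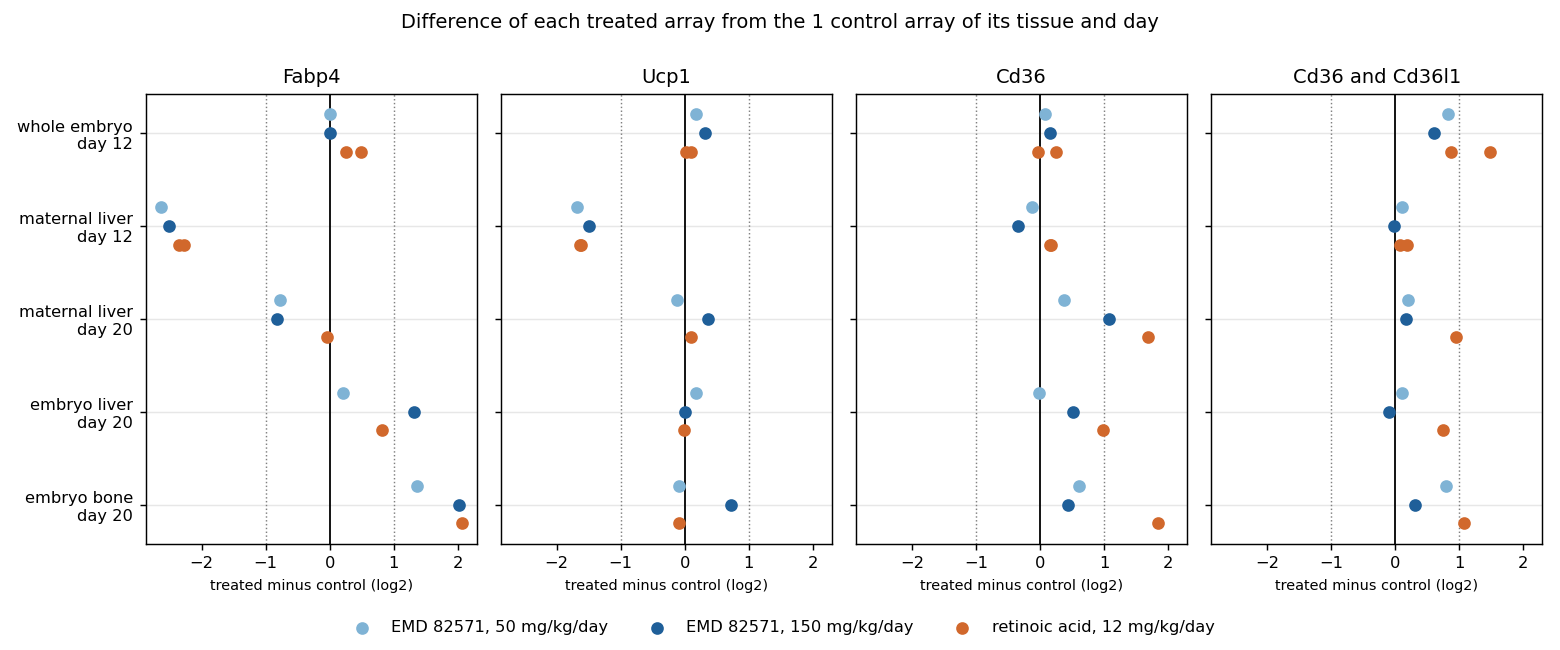
Difference between each treated array and the control array of its tissue and day (log2, horizontal axis; dotted lines at a 2-fold change), by tissue and day (vertical axis) for the 4 probe sets, with 1 point per treated array. For Fabp4 all 7 maternal liver points lie left of 0, down to −2.64, and all 10 points of the conceptus right of 0, up to 2.07.

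Ucp1 varied little except in a single liver. Its maternal liver control of day 12 read 8.24, against 6.56 under EMD50, 6.75 under EMD150, and 6.63 and 6.61 under retinoic acid. At day 20 the maternal livers read 6.66 in the control, 6.54 under EMD50, 7.02 under EMD150 and 6.75 under retinoic acid. Every other array of the series lay between 6.13 and 6.99. In the EMD50 liver of day 12, Ucp1 differed from the control by −1.68, with 1 probe set lower, and in the others by −1.49, −1.62 and −1.64.

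Over the 9 maternal livers the Ucp1 difference was −0.73 ± 0.32 (SE) for EMD 82571 and −0.83 ± 0.34 (SE) for retinoic acid, neither called (limma adjusted p 1 and 0.682). With the day 12 control left out they turned to 0.12 and 0.09, and without that of day 20 they were −1.59 and −1.62, both called (limma adjusted p 0.006 and 0.00681). Maternal liver of day 12 exceeded whole embryo by 0.71 ± 0.22 (SE; limma adjusted p 0.00809), and by 0.36 with the day 12 control left out (limma adjusted p 0.00586). Day 20 differed from day 12 by −0.27 ± 0.25 (SE; limma adjusted p 0.572), EMD150 from EMD50 by 0.33 ± 0.37 (SE; limma adjusted p 0.744) and retinoic acid from EMD 82571 by −0.10 ± 0.29 (SE; limma adjusted p 0.913). Over all 5 combinations of tissue and day the differences from control were −0.31 ± 0.22 (SE) under EMD50, −0.02 ± 0.22 (SE) under EMD150 and −0.34 ± 0.21 (SE) under retinoic acid, none called (limma adjusted p 1, 0.970 and 0.564). Without the 3 arrays named above all 3 turned, to 0.09, 0.33 and 0.02.

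In bone, Ucp1 read 6.26 in the control, 6.17 under EMD50, 6.99 under EMD150 and 6.18 under retinoic acid. The EMD150 bone thus stood 0.72 above its control, with 78 probe sets higher, and was the only bone above 6.30. Ucp1 of bone did not differ from that of embryo liver (−0.15 ± 0.25 SE, limma adjusted p 0.617) or of whole embryo (0.11 ± 0.23 SE, limma adjusted p 0.727) beyond the threshold, and the latter turned to −0.02 when the arrays were scaled to equal median and SD. Against maternal liver of day 12, which holds the high control, Ucp1 was called lower in bone (−0.59 ± 0.23 SE, limma adjusted p 0.0381). There 56.5% of all probe sets were called.

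The correlation of Fabp4 with Ucp1 in maternal liver rested largely on the day 12 control, the only liver high in both genes. Over the 9 maternal livers Pearson's r was 0.886 (exact permutation p 0.0522, adjusted over 3 pairs 0.157) and Spearman's rho 0.467 (exact permutation p 0.213, adjusted 0.639). Without both controls, which lie farthest from the median of Fabp4, r was 0.00951 over 7 livers. Of these controls only that of day 12 was high in both genes, at 8.24. That of day 20 had Ucp1 at 6.66, within the range of the treated livers (6.54 to 7.02). Over the 22 deviations from the mean of each tissue and day, r was 0.658 (permutation p 0.0996, adjusted 0.195) and 0.322 without 2 arrays, and rho 0.379 (permutation p 0.121, adjusted 0.258).

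No correlation of Cd36 with either gene passed the threshold. Its r with Fabp4 was 0.0871 over the livers (exact permutation p 0.794, adjusted 0.794; rho 0.133, p 0.744) and 0.793 without both controls. Over the deviations it was 0.373 (permutation p 0.130, adjusted 0.195; rho 0.346, p 0.172). With Ucp1, r was 0.164 over the livers (exact permutation p 0.622, adjusted 0.794; rho 0.267, p 0.493) and −0.0307 over the deviations (permutation p 0.873, adjusted 0.873; rho 0.00282, p 0.992), and leaving out 2 arrays gave 0.322 and 0.0299. The 2 Cd36 probe sets, which share a gene, had an r of 0.836 over the livers (exact permutation p 0.00546; rho 0.767, p 0.0214) and 0.688 over the deviations (permutation p 2.80e-04; rho 0.571, p 0.0108), and 0.477 and 0.552 without 2 arrays.

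**Figure D4:**
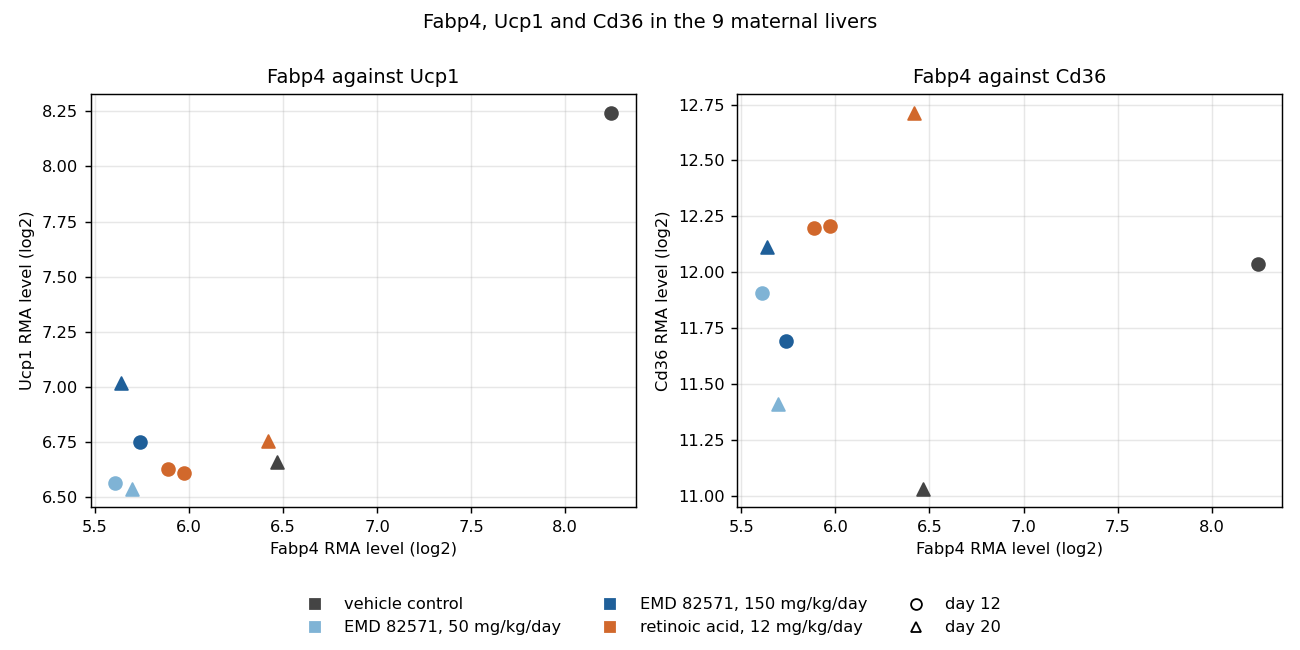
RMA levels (log2) of Fabp4 (horizontal axes) against Ucp1 and Cd36 (vertical axes) in the 9 maternal livers, with 1 point per array, circles for day 12 and triangles for day 20, coloured by treatment. The day 12 control sits alone at 8.24 for both Fabp4 and Ucp1, and the other 8 livers lie at 6.47 or below for Fabp4 and at 7.02 or below for Ucp1.

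Markers of other cells were also high in the liver control of day 12. The mean level of 11 pancreatic acinar genes was 10.67 in it and 9.98 in the EMD50 liver, against 7.62 at the lowest of that day. The mean of 4 red cell genes was 10.35 there, against 9.25 to 9.65 in the other livers of day 12. The 5 measured defining fat cell markers, Plin1, Cfd, Lep, Aqp7 and Adrb3, had a mean of 7.90, against 7.62 to 7.78 in those livers. Their summed linear level was 1368, against 1101 to 1267. The 12 other brown fat genes had a mean of 7.66, against 7.48 to 7.57. Within day 12, Cfd was higher in a retinoic acid liver (8.77 against 8.62 in the control) and Lep under EMD150 (7.96 against 7.85). The control liver of day 20 read Plin1 6.31, Cfd 9.05, Lep 8.05, Aqp7 8.21 and Adrb3 8.25. That of day 12 read 6.29, 8.62, 7.85, 8.45 and 8.31. Fabp4 and Ucp1 in the day 20 control were 6.47 and 6.66. None of the markers can be called at 0, because RMA gives no zero, and the part of these cells in the Fabp4 and Ucp1 levels was not tested. The EMD50 liver, with an acinar mean of 9.98, had Fabp4 and Ucp1 at 5.61 and 6.56.

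Single genes outside the rule for named genes were looked up after their values were seen. They are a choice from the longer white and brown fat lists and do not stand for either list. Cidea, a lipid droplet protein of brown fat, read 9.06 in the liver control of day 12 against 8.21 to 8.50 in the treated livers, and 9.0 in the control of day 20. Lpl, the enzyme that frees fatty acids from blood lipids, read 8.88 in the same day 12 control against 8.06 to 8.30, whereas Plin1, the coat protein of fat droplets, read 6.29 there against 6.12 to 6.29. In the EMD150 bone, where both Fabp4 and Ucp1 were high, Cidea read 9.38 against 7.66 to 8.41 in the other bones, and Gpd1, which makes the glycerol backbone of fat, 9.54 against 7.99 to 8.35. Lpl read 9.31 there and was the lowest of the 4 bones, and Cox8b, a respiratory chain subunit of brown fat and muscle, read 7.32 against 8.23 to 9.48. Of the 5 defining fat cell markers, 4 were higher in the EMD150 bone than in the control, with a median difference of 0.259. Aqp7 (8.53), Lep (7.74), Adrb3 (8.15) and Plin1 (6.35) were highest there, and the other bones reached 7.93, 7.43, 7.92 and 6.13. Cfd read 7.47 there and 7.61 in the control. Under EMD50 2 of the 5 were higher than in the control and under retinoic acid 0, with medians of −0.0869 and −0.259. The part of fat cells in these values was not tested.

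Part of the other fat cell genes were higher in bone than in whole embryo. Of 20 measured white fat cell genes other than Fabp4, 10 were called higher and 1 lower, with a median difference of 0.30, against 0.01 for all probe sets, of which 19.9% were called higher and 26.7% lower. The largest were Lpl (1.92, limma adjusted p 2.23e-06), Gpd1 (1.21, limma adjusted p 9.74e-04), Dgat2 of triglyceride synthesis (0.81, limma adjusted p 0.00127) and the fat-releasing lipase Pnpla2 (0.75, limma adjusted p 1.27e-04), while Nnat was lower (−1.09, limma adjusted p 8.04e-06). Of the 5 defining markers only Cfd, the fat cell protease adipsin, was called (0.66, limma adjusted p 0.00154), and the other 4 differed by 0.04 to 0.18. Against embryo liver 4 of the 5 were called lower in bone, Aqp7 (−0.82), Cfd (−0.56), Lep (−0.54) and Adrb3 (−0.37), with limma adjusted p from 1.42e-04 to 0.0143. Against maternal liver of day 20, 3 were called lower, Cfd by −1.20, Lep by −0.51 and Adrb3 by −0.39 (limma adjusted p 3.02e-06 to 0.00894).

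Of 16 genes of fat cell precursors, 7 were called higher in bone than in whole embryo and none lower, beside the 19.9% higher and 26.7% lower of all probe sets, led by Dlk1, a precursor cell surface protein (1.86, limma adjusted p 8.23e-08), and the early regulators Cebpb (1.73, limma adjusted p 4.43e-05), Klf5 (1.21, limma adjusted p 3.35e-07) and Cebpd (1.06, limma adjusted p 5.29e-07). Of 12 brown fat genes other than Ucp1, 3 were called higher, a share near the 19.9% of all probe sets: Cox8b (2.32, limma adjusted p 3.84e-07), Cidea (1.35, limma adjusted p 1.41e-04) and Cpt1b (1.14, limma adjusted p 1.53e-06), and 1 lower, Zic1 (−0.64, limma adjusted p 4.71e-07). Cox8b and Cpt1b are also made by muscle. The mean of the 11 skeletal muscle genes was 11.09 to 11.96 in bone and 7.74 to 7.83 in whole embryo, and the part of muscle RNA in these differences was not tested. Bone and whole embryo also differ in age, which cannot be told apart from tissue. Counts of the precursor and brown fat lists against embryo liver and maternal liver are not given here.

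Against maternal liver of day 20 the white fat cell list went the other way. In bone 3 of the 20 genes were called higher and 12 lower (median difference −0.45, against −0.02 for all probe sets, of which 30.5% were called higher and 27.6% lower), the highest being Mest (5.18, limma adjusted p 1.23e-13), Nnat (3.29, limma adjusted p 9.06e-13) and Lpl (1.79, limma adjusted p 6.11e-06), and the lowest Thrsp of lipid synthesis (−6.50, limma adjusted p 1.44e-17). Many of these genes are also made by liver. Of 17 genes of fatty acid oxidation under PPAR-alpha, 16 were called lower in bone, among them Ehhadh (−5.55, limma adjusted p 1.36e-14) and Cyp4a1 (−4.04, limma adjusted p 1.16e-11).

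Under retinoic acid the lists were called about as seldom as all probe sets, of which 1.83% were. Of 18 genes of fatty acid uptake and binding other than Fabp4 and Cd36, only Dbi, a carrier of acyl-CoA, was called higher over all tissues and days (0.59, limma adjusted p 0.0462), and of the 16 precursor genes only Id2 (0.72, limma adjusted p 0.0259). None of the 20 white fat, 12 brown fat and 17 oxidation genes was called by limma. The list medians were 0.15 for uptake, −0.03 for white fat, −0.06 for brown fat and −0.03 for oxidation, against −0.02 for all probe sets. Between the days of maternal liver, 5 of the 17 oxidation genes were called higher at day 20, against 2.46% of all probe sets, led by Cpt1a, the gate of fatty acids into mitochondria (1.44, limma adjusted p 0.00335), and Fgf21 (1.42, limma adjusted p 0.0181), while neither Cd36 nor Fabp4 was.

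The genes most like each member were ranked by Pearson's r over 10408 genes. Over the 22 arrays, Cd36 was followed most closely by Cp (0.988), Tor1aip2 (0.981) and Cmbl (0.981), Fabp4 by Aoc3 (0.771), S100b (0.719) and Anxa8 (0.712), and Ucp1 by Klk1b3 (0.859), Gp2 (0.827) and Cel (0.807). Over the 9 maternal livers the closest to Fabp4 were Bpgm (0.871), Prss2 (0.831) and Dgkh (0.826), and to Ucp1 Cdc25b (0.966), Bpgm (0.929) and Esr2 (0.918). Bpgm, an enzyme of red cells, read 8.78 in the day 12 control, and Prss2 and Cel are digestive enzymes of the pancreas. All the genes closest to Fabp4 or Ucp1 in the livers had their highest liver level in that control. Klk1b3, Gp2 and Cel had their highest level of all 22 arrays in it. Dgkh, Esr2 and Klk1b3 spanned only 5.95 to 6.22, 5.98 to 6.34 and 5.58 to 5.92. These r values were not recomputed without that array. Cd36 in the livers was closest to Hsbp1 (0.968), N4bp2l2 (0.958) and Bfar (0.954).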

How the data were processed

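The deposited log2 values were made by the authors with RMA, per the submitters' processing notes; the sources used here give neither its version nor whether all arrays were processed together. They were used unchanged, without the 57 array controls or any filter. Columns of other series numbered 0. Symbols came from GEO's platform annotation: 12783 probe sets had 1 symbol, 312 several and 2771 none.

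Two-sided tests came from limma (version 3.58.1, R 4.3.3; lmFit and contrasts.fit, then eBayes with trend), with Benjamini-Hochberg adjustment over 15866 probe sets and a call at an adjusted p under 0.05. Maternal livers were fitted alone (day and treatment, 4 residual degrees of freedom), all other comparisons over 22 arrays (tissue and day as a block and treatment, 14; separate effects by side or day, 11). Correlations were tested with exact permutations of 9 livers (SciPy 1.17.1) or 100000 permutations within tissue and day; 3 pairs were possible, because Adipoq has no probe set in the annotation. Named genes were the members, up to 4 called genes per direction and list, and the 3 genes most like each member; list genes used the probe set with the highest mean.

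Members and lists were chosen with earlier results of these data known. On simulated data, 189 of 200 changes of 1 log2 unit were recovered for retinoic acid against control, with 7 false calls. Between the days of maternal liver 183 of 200 were recovered, with 10 false calls. The simulated noise was independent, each change was the same in all changed arrays, and no array stood apart. The real arrays differ in these points, so the recovery does not measure the power reached in them. Alternatives were scaling, quantile normalization, a filter, no trend, other samples in the fit and leaving out each array. Leaving out 3 arrays together, leaving out both RA5 arrays, averaging the retinoic acid pairs and both models with separate effects were added after the data were seen.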

Additional observations from a re-analysis of the deposited data

Results flagged for a closer look

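For 4 of 20 combinations of a probe set with a tissue and day, 1 array stood far from the others by Dixon's test. About 1 in 20 would be marked by chance if the arrays of a combination came from 1 distribution. Here they hold different treatments, and the combinations share arrays, so the count cannot be set against that rate. In maternal liver at day 12 the control was the highest of 5 arrays for Fabp4, at 8.24, its gap to the next being 0.863 of the whole range, and for Ucp1, at 8.24, with 0.889 of the range. In embryo bone the EMD150 array was the highest for Ucp1, at 6.99 (0.89 of the range). In embryo liver the EMD50 array was the highest for Ucp1, at 6.68 (0.867 of the range), although the 4 livers span only 0.19.

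The Fabp4 differences ran opposite ways in maternal liver and conceptus: every treated array lay below its control in the former and above it in the latter. The signs are not independent, because the arrays of a tissue and day share 1 control. The liver control of day 12 and the control bone are among the arrays with deviating measures. Some differences were near 0, with −0.048 in the day 20 maternal liver under retinoic acid and 0.01 in both EMD 82571 whole embryos. The difference of the effects was −2.51 for EMD 82571 and −2.36 for retinoic acid. Neither passed limma's adjustment over all probe sets (adjusted p 0.713 and 0.390).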

How the results depend on the processing

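The 58 differences of the 4 probe sets were recomputed under the alternatives. Those other than leaving out 1 array gave 384 values: 363 kept direction and call, 15 changed sign, 4 lost a call and 2 gained one. Leaving out 1 array gave 1016 values, of which 940 kept both, 37 changed sign, 29 lost a call and 10 gained one. The causes were not tested. Fabp4 and Ucp1 lie below the median of means, so the filter gave no value for them. No paired analysis was possible because the labels give no replicate numbers, the codes RA5 and RA56 are not explained and no control carries them, and most groups hold 1 array. The depth of signal over background is unknown.

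Without the 3 arrays that stand apart, Ucp1 changed sign between the days of maternal liver (0.121), in maternal liver for EMD 82571 (0.120) and retinoic acid (0.0811), and over all tissues for EMD50 (0.0932), EMD150 (0.327) and retinoic acid (0.0192), as did Fabp4 for EMD50 (0.184) and the day difference of the retinoic acid effect on shared Cd36 (−0.167). Cd36 lost its retinoic acid call (0.903) and Fabp4 gained one for bone against embryo liver (0.924), as it did from those arrays alone (0.991). Scaling to equal median and SD and quantile normalization turned maternal EMD150 minus EMD50 of shared Cd36 (0.075 and 0.050) and Fabp4 (−0.0734 and −0.00493) and Fabp4 under EMD150 (−0.0645 and −0.0566), and ended the retinoic acid call of Cd36 (0.769 and 0.756). Scaling turned Ucp1 of bone against whole embryo (−0.0214) and ended the day 20 call of shared Cd36 (0.796). With the shared probe set the liver r of Ucp1 with Cd36 was −0.000405.

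Leaving out 1 maternal liver gave day differences of −0.361 to 0.181 for Cd36, −0.401 to −0.0819 for shared Cd36, −0.598 to 0.191 for Fabp4 and −0.448 to 0.128 for Ucp1. EMD 82571 differences ran in the same order from −0.348 to 0.84, −0.0859 to 0.32, −2.67 to −0.701 and −1.59 to 0.124, and EMD150 minus EMD50 from −0.0897 to 0.579, −0.225 to 0.0733, −0.191 to 0.263 and −0.0148 to 0.68. For Fabp4 and Ucp1, retinoic acid gave −2.22 to −0.247 and −1.62 to 0.0912, and retinoic acid minus EMD 82571 −0.0396 to 0.525 and −0.324 to 0.0485. Leaving out 1 of 22 arrays, bone minus embryo liver was 0.72 to 1.58 for Fabp4, bone minus maternal liver 1.04 to 1.88 for Fabp4 and −0.522 to −0.215 for Ucp1, and bone minus whole embryo −0.0621 to 0.235 for Ucp1. Over all tissues Fabp4 and Ucp1 ran from −0.839 to 0.241 and −0.409 to 0.0359 under EMD50, −0.471 to 0.61 and −0.163 to 0.325 under EMD150, and −0.344 to 0.765 and −0.452 to 0.0366 under retinoic acid, where Cd36 gave 0.681 to 1.01 and shared Cd36 0.659 to 0.897. At day 20 they gave 1.34 to 1.68 and 0.795 to 1.03, and the day difference of shared Cd36 −0.159 to 0.697. Maternal minus conceptus values of Fabp4 were −3.49 to −1.52 for EMD 82571 and −3.27 to −1.30 for retinoic acid.

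Counts of called probe sets moved by over 1.5 times in these cases. Without the 3 arrays, 965 became 474 between the days, and 0 became 1 for maternal EMD 82571, 1 for maternal retinoic acid, 6 for the retinoic acid day difference and 1 for the maternal minus conceptus EMD 82571 effect. With all 22 arrays, 0 became 12 for maternal retinoic acid and 1 for retinoic acid minus EMD 82571. The filter, which tests fewer probe sets, gave 4503 for 8751 (bone minus embryo liver), 4580 for 7396 (whole embryo), 5326 for 9220 (maternal liver) and 6251 for 11072 (maternal liver minus whole embryo). Retinoic acid went from 291 to 191 under scaling, and at day 20 from 424 to 277 under quantile normalization. Leaving out 1 array gave 183 to 1650 between the days, 0 to 437 for retinoic acid, 1 to 654 for it at day 20, and up to 14 where the count was 0.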

Other observations

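The 2 Cd36 probe sets did not keep a fixed distance. The shared probe set read above the other in all 22 arrays, by 0.22 in the control whole embryo and by up to 1.91 in the EMD50 bone. In whole embryo it was 0.98 under EMD50, 0.67 under EMD150, and 1.46 and 1.12 under retinoic acid, and retinoic acid minus control in whole embryo was 1.49 and 0.87 on the shared probe set against 0.25 and −0.03 on the other. In bone the distance was 1.73 in the control and 0.95 under retinoic acid.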
